A study of Arabidopsis thaliana with 8 samples.

Results

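DPE1 (AT5G64860), PWD (AT5G26570) and SBE2.2 (AT5G03650) are nuclear genes for starch enzymes of the Arabidopsis plastid. They were chosen with earlier results of these data known. They are 3 of the 13286 genes that could be named on the arrays, and each was chosen by its locus and read by 1 probe set, a group of short probes against 1 transcript: 247216_at for DPE1, 246829_at for PWD and 250906_at for SBE2.2. Whole seedlings aged 10 days were compared in 4 groups of 2 biological replicates, 1 array per sample. The groups were wild type of ecotype Col-1 at 22 °C before cold, wild type after 6 h at 4 °C, the TabZIP6-overexpressing line L20 at 22 °C before cold, and L20 after 6 h at 4 °C. TabZIP6 is a wheat transcription factor of the bZIP class, which has no probe set of its own here, and L20 is 1 transgenic line. The labels used here name neither the promoter that drives TabZIP6 nor the ecotype of L20, and whether the replicates were separate sowings is not stated, so the p-values reflect only how far these samples spread.

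Leaf starch is built in the chloroplast during the day and broken down at night. Branching enzymes such as SBE2.2 add branch points to the growing glucan. Breakdown begins when the dikinase GWD1 and then PWD add phosphate to the granule surface, which opens it to beta-amylases that release maltose. Short glucans that beta-amylases cannot use, above all maltotriose, go to DPE1, the disproportionating enzyme, which joins them into longer chains and releases glucose. Starch turnover in cold-treated Arabidopsis is known to feed sugars that accompany cold acclimation.

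After cold the DPE1 signal was lower on all arrays of both lines, by a 2.67-fold mean change, and this change was called. PWD was lower on all of them by a smaller amount, which was not called in the fit without a replicate term (adjusted p = 0.147). With that term it was called (0.0493), and the call was lost without each of 7 of the 8 arrays. SBE2.2 showed no called change in either fit. In none of the 3 genes was a difference between L20 and wild type called at either temperature. Values are log2 signals as deposited, on which 1 unit is a doubling, and a change was called at a Benjamini-Hochberg adjusted p under 0.05 over all 22746 tested probe sets (limma, with a mean per group). Since a probe set's brightness depends on its probes, levels are compared within a gene and not between genes.

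The array medians ran from 4.95 to 5.06. The 3 genes lay above the median on every array (percentiles 69.1 to 94.7), where medians do not show how alike the arrays were. Arrays with the same replicate number deviated together, with correlations of 0.341 to 0.837 between groups across probe sets. A second, blocked fit with a term for the replicate number is therefore given where it alters a call. The correlation between the lines was 0.341 before cold and 0.837 after cold. A term shared by all groups does not take out a shift particular to chilled arrays. Both fits treat what remains as independent, so the p-values of the mean cold response may be too small. No 22 °C sample was taken at 6 h in these groups, so the effect of cold and that of the 6 h between samplings cannot be told apart. Of 20 tissue markers looked up, 3 had a named probe set. Rubisco activase (RCA), a marker of green tissue, stood at 12.62 to 12.99 before and 13.03 to 13.52 after cold. Its chilled arrays were thus all above the unchilled ones, as in 5.05% of all probe sets. The mean RCA change of both lines, 0.46, was not called (limma adjusted p = 0.298). The root markers PYK10 (8.51 to 9.60) and EXPA7 (4.41 to 5.41) overlapped before and after cold. The 6 seed and pollen markers had no named probe set. In whole seedlings, fewer cells of a type and less RNA per cell cannot be told apart.

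DPE1 had the largest change of the 3 genes. Before cold its signal was 7.69 and 7.85 in replicates 1 and 2 of wild type and 7.54 and 7.83 in L20. After cold it was 6.12 and 6.47 in wild type and 6.12 and 6.52 in L20. Every chilled array lay more than 1 log2 unit below every unchilled array, and the arrays of both lines overlapped at each temperature. Of all probe sets, 4.3% had their 4 chilled arrays wholly below the 4 unchilled ones.

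As group means, DPE1 went from 7.77 ± 0.11 to 6.30 ± 0.24 in wild type (SD, n = 2) and from 7.68 ± 0.20 to 6.32 ± 0.29 in L20. The drop was alike within each replicate number. In wild type the differences were -1.56 and -1.38 in replicates 1 and 2, and in L20 they were -1.42 and -1.30. All 4 drops exceeded 1 log2 unit, which held for 63 of the 22746 probe sets (0.277%). In order of level the groups ran from wild type before cold through L20 before cold and L20 after cold to wild type after cold, and only the step between temperatures exceeded the spread of its neighbours. Replicate 2 read higher than replicate 1 in each of the 4 groups, a shift whose average the block takes out.

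**Figure D1:**
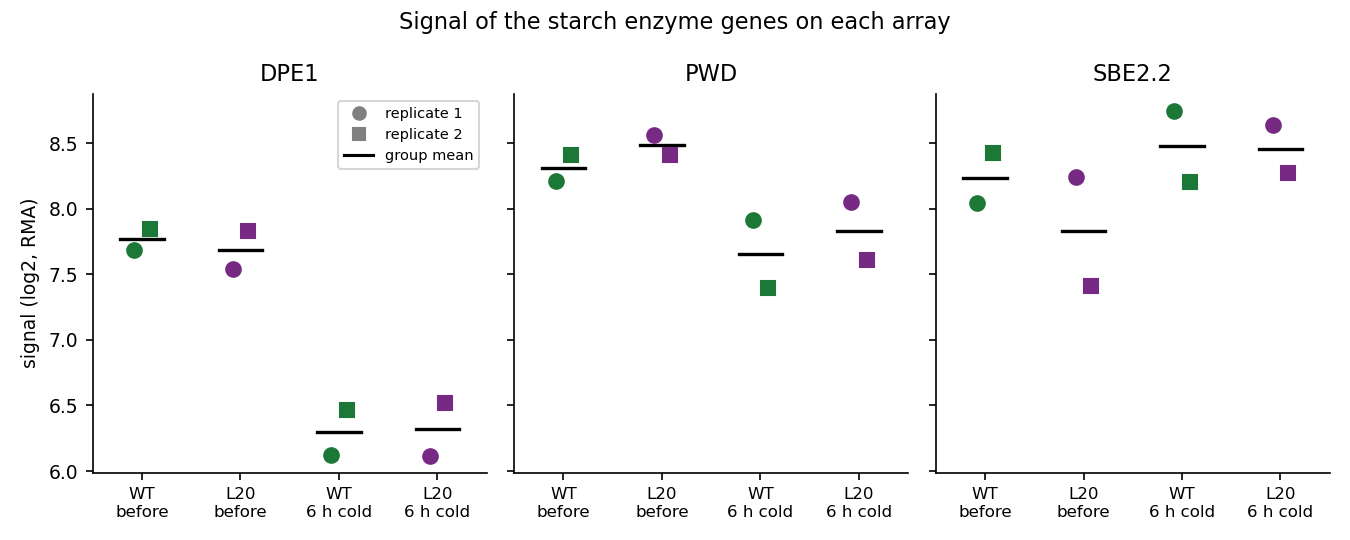
Log2 signal (vertical axis) of DPE1, PWD and SBE2.2 on each of the 8 arrays, by group. Circles are replicate 1, squares replicate 2, green wild type, purple L20, and lines the group means. DPE1 separates the chilled arrays (6.12 to 6.52) from the unchilled ones (7.54 to 7.85), PWD separates them by less, and SBE2.2 overlaps.

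Averaged over both lines with equal weight, DPE1 fell by 1.42 on the log2 scale (SE 0.16, 95% interval -1.80 to -1.04, limma adjusted p = 0.0110). It ranked 106 of 22746 by p. In the same comparison 0.787% of probe sets were called lower, and DPE1 was the 1 member of the 3 among them. The change was larger than that of most of the array: 0.624% of probe sets had a lower mean cold change, and the median probe set stood at 0.01. With the replicate block the limma adjusted p was 0.00123, and 3.06% of probe sets were called lower. Leaving out replicate 2 of wild type before cold or replicate 1 of wild type after cold brought the adjusted p to 0.05003 and 0.05008 in the fit without the block. With the block the call held without any 1 of the 8 arrays (limma adjusted p from 0.00122 to 0.0216).

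Within a single line the evidence was thinner, since each side then has 2 arrays. The DPE1 difference was -1.47 (95% interval -2.01 to -0.93) in wild type and -1.36 (-1.90 to -0.83) in L20. Neither passed without the block (limma adjusted p = 0.0589 and 0.0767), and both passed with it (0.00736 and 0.0103). Across the 3 genes the single-line fits called 0 members in either line, against a background of 0.532% of probe sets called in wild type and 0.378% in L20. In each line 2 members, DPE1 and PWD, had an unadjusted p under 0.05, as did 6.63% of all probe sets in wild type and 9.73% in L20. With the block 1 member, DPE1, was called in each line, against 1.57% and 2.55%. The blocked call in wild type was lost without either chilled wild-type array (limma adjusted p = 0.145 and 0.128). That in L20 was lost without replicate 1 of L20 before cold (0.0582), either chilled wild-type array (0.0540) or replicates 1 and 2 of chilled L20 (0.188 and 0.113).

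**Figure D2:**
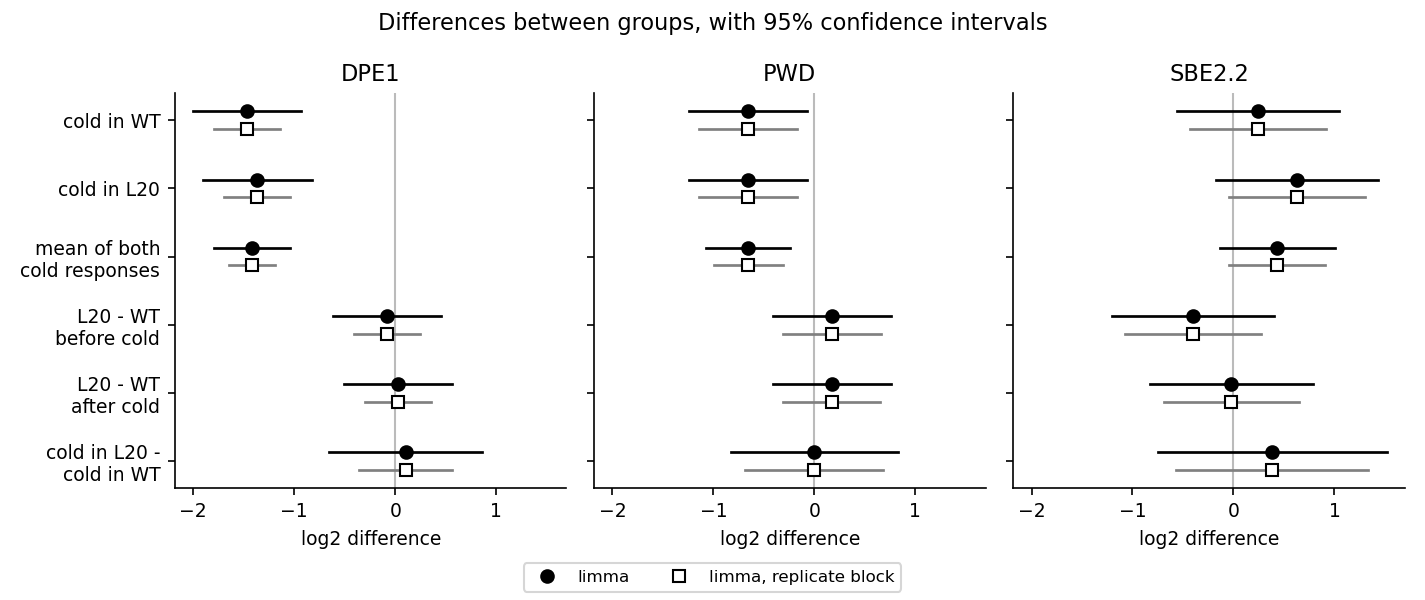
Log2 differences (horizontal axis) of the 3 genes for 6 comparisons between groups, with 95% confidence intervals from limma. Filled circles are the fit without and open squares the fit with the replicate block. The 3 cold comparisons of DPE1 lie between -1.47 and -1.36, those of PWD near -0.65, and the intervals of the line comparisons all cross 0.

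PWD, the dikinase gene, was also lower on every chilled array, by less. Its signal before cold was 8.21 and 8.41 in wild type and 8.56 and 8.41 in L20. After cold it was 7.91 and 7.40 in wild type and 8.05 and 7.61 in L20. The chilled arrays were all below the unchilled ones, as in 4.3% of all probe sets. The highest chilled array was at 8.05 and the lowest unchilled one at 8.21.

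The replicates did not give PWD the same size of change. Cold differences were -0.30 in replicate 1 and -1.01 in replicate 2 of wild type, and -0.51 and -0.80 in L20. Replicate 2 thus showed the larger drop in both lines, although the group means gave -0.65 in wild type and -0.66 in L20 (SE 0.25 for each). The SD between chilled replicates was 0.36 in wild type and 0.31 in L20, against 0.14 and 0.11 before cold. L20 was the higher line in group means at both temperatures, at 8.48 against 8.31 before and 7.83 against 7.66 after cold, within the spread of the replicates.

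The mean PWD difference over both lines was -0.65 (SE 0.17, 95% interval -1.07 to -0.24), a 1.57-fold lower signal. It was not called (limma adjusted p = 0.147) and passed narrowly with the replicate block (0.0493). In the blocked fit 2 of the 3 members were then called lower, DPE1 and PWD, against 3.06% of all probe sets. The blocked call of PWD held without replicate 1 of wild type before cold (limma adjusted p = 0.0132) and was lost without each of the other 7 arrays (0.0517 to 0.220). In single lines PWD was not called in either fit, with limma adjusted p = 0.625 in wild type and 0.426 in L20 without the block and 0.242 and 0.165 with it. Of all probe sets 3.69% had a lower mean cold change than PWD.

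A second probe set, 254153_at, carries the symbol PWD in the annotation but belongs to another locus, AT4G24450, which the gene table also lists as ATGWD2. It was not counted as PWD, and it is named here because of the shared symbol. Its signal was 5.07 and 5.65 in wild type and 4.55 and 5.84 in L20 before cold, and 4.37 and 5.71 in wild type and 4.75 and 6.01 in L20 after cold. Those values followed the replicate number, with replicate 2 higher in all 4 groups, and overlapped between temperatures.

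**Figure D3:**
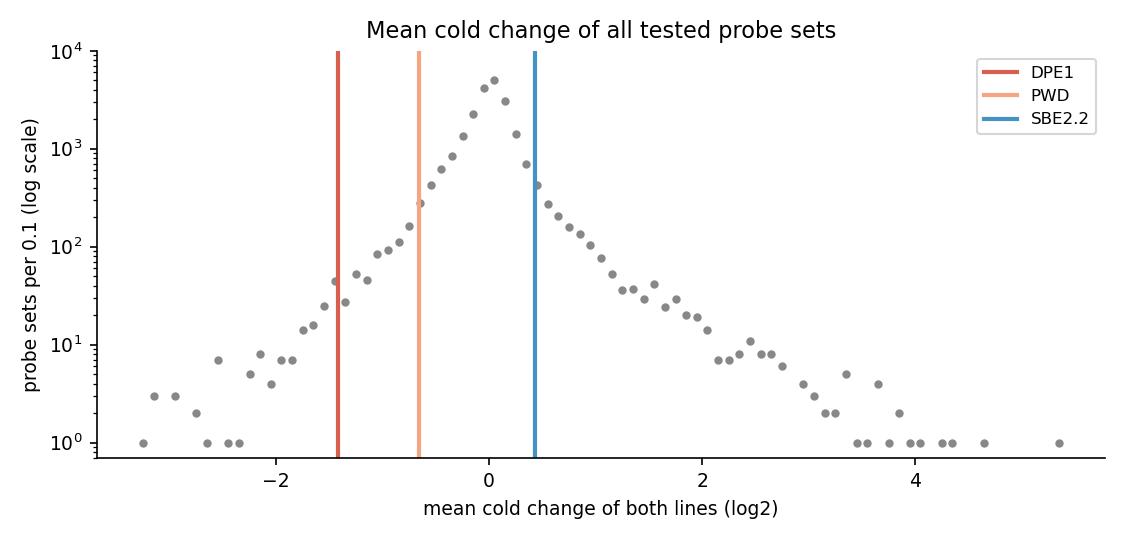
Mean cold change of both lines (log2, horizontal axis) over the 22746 tested probe sets. Grey points are the number of probe sets per interval of 0.1 on a log axis, and coloured lines mark the 3 genes. DPE1, at -1.42, lies below all but 0.624% of probe sets, PWD, at -0.65, below all but 3.69%, and SBE2.2, at 0.43, lies in the upper flank.

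SBE2.2, the branching enzyme gene of starch synthesis, had no called change with cold. Its signal was 8.04 and 8.43 in wild type and 8.24 and 7.41 in L20 before cold. After cold it was 8.75 and 8.20 in wild type and 8.64 and 8.27 in L20. The chilled and unchilled arrays overlapped, and the lowest value of the 8 was that of replicate 2 of L20 before cold. The group means ran from 7.83 ± 0.59 (SD, n = 2) in unchilled L20 through 8.23 ± 0.27 in unchilled wild type to 8.46 ± 0.26 and 8.48 ± 0.38 in chilled L20 and wild type, and no neighbours in that order differed beyond their spread.

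The mean SBE2.2 difference with cold was 0.43 (SE 0.24, 95% interval -0.13 to 1.00, limma adjusted p = 0.597, or 0.293 with the block). Within replicate numbers the differences were 0.71 and -0.22 in wild type and 0.40 and 0.86 in L20, so 3 of 4 were upwards. In wild type alone the difference was 0.24 (-0.56 to 1.04) and in L20 0.63 (-0.18 to 1.43). Both intervals include a doubling and a decrease. Without replicate 2 of wild type before cold, the blocked fit called SBE2.2 higher after cold (0.68, limma adjusted p = 0.0271), and without replicate 2 of L20 before cold its mean difference without the block was 0.23.

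The line comparisons asked whether the 3 genes differed between L20 and wild type. With 1 transgenic line, an effect of TabZIP6 cannot be told apart from other differences of that line. These comparisons share arrays with the cold comparisons. Before cold L20 differed from wild type by -0.08 (95% interval -0.62 to 0.45) for DPE1, by 0.17 (-0.41 to 0.76) for PWD and by -0.40 (-1.21 to 0.40) for SBE2.2. The SBE2.2 value came from opposite differences, 0.20 in replicate 1 and -1.01 in replicate 2, and without replicate 2 of L20 it stood at 0.01. For PWD the replicates gave 0.35 and 0.00, and after quantile normalization of the arrays the difference was -0.02. The same step gave -0.25 for DPE1 and -0.61 for SBE2.2 (limma adjusted p = 0.743 for SBE2.2).

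After cold L20 differed from wild type by 0.02 (-0.51 to 0.56) for DPE1, 0.17 (-0.41 to 0.76) for PWD and -0.020 (-0.82 to 0.78) for SBE2.2. Limma called 0 of the 3 genes before or after cold, with and without the block, and over all probe sets 0.0176% were called before cold (0.167% with the block) and 0% after cold. At an unadjusted p under 0.05 there were also 0 of the 3 genes. The share of all probe sets was 5.54% before cold (11.1% with the block) and 0.0835% after cold (0.567%). The shares after cold are far below what a p under 0.05 gives without any difference. Chilled arrays of both lines deviated together by replicate number (correlation 0.837), and the fits count that shift at least in part as spread. The comparison after cold was thus overly strict, and its lack of calls carries little information. Unchilled L20 stood 1.39 above chilled wild type in DPE1 signal, at 7.68 against 6.30.

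The test of the difference between the cold responses of L20 and wild type gave 0.11 (95% interval -0.65 to 0.86) for DPE1, 0.00 (-0.83 to 0.83) for PWD and 0.38 (-0.75 to 1.52) for SBE2.2. Limma called 0 of the 3 and 0% of all probe sets. None of the 3 had an unadjusted p under 0.05, against 2.18% of all probe sets (5.34% with the block). A missed test does not show that the lines responded alike: for DPE1 the interval allows a response in L20 that is weaker by 0.86 or stronger by 0.65 on the log2 scale. With the block that interval narrowed to between -0.36 and 0.57.

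Around these 3 genes, 70 loci of starch and sugar metabolism were looked up, and 13 of them had a named probe set, the 3 members included. Of the other 10, LESV, a starch granule protein gene, was the 1 called higher with cold in the mean of both lines without the block. With the block the sucrose-phosphate synthase gene SPS4F was called higher as well. The LESV signal before cold was 5.35 and 5.49 in wild type and 5.98 and 6.26 in L20. After cold it was 6.66 and 6.53 in wild type and 7.18 and 6.66 in L20. For LESV all chilled arrays were above all unchilled ones, as in 5.05% of probe sets. Its unchilled L20 arrays lay between unchilled and chilled wild type.

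The mean change of LESV was 0.99 (SE 0.16, limma adjusted p = 0.0310, or 0.0158 with the block), against 1.32% of probe sets called higher. Its call was kept without replicate 2 of chilled L20 (limma adjusted p = 0.0401) and lost without each of the other 7 arrays (0.0665 to 0.130). Before cold LESV differed between L20 and wild type by 0.70 (SE 0.23), which was not called (limma adjusted p = 0.707).

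Of the other synthesis genes, APL4, a large subunit of ADP-glucose pyrophosphorylase, stood at 0.41 (limma adjusted p = 0.373) and APL3, another large subunit, at 0.20 (0.679). SS5, a starch synthase-like gene, was at -0.25 (0.871) and PTST3, of granule initiation, at -0.13 (0.950). PTST2, of the same process, was at 0.02 and PTST1, which brings granule-bound starch synthase to starch, at 0.03, both with limma adjusted p = 1.00. None of these 6 passed in either fit.

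AMY1, an alpha-amylase gene and the 1 measured gene of starch hydrolysis, stood at 0.11 (limma adjusted p = 0.990). SPS4F had a larger mean change than LESV, at 1.36 (SE 0.36, limma adjusted p = 0.147) and was called higher with the block (0.0374). Its cold differences were 1.51 and 0.05 in wild type and 1.82 and 2.04 in L20. The sucrose-phosphate phosphatase gene SPP2 was at 0.70 (limma adjusted p = 0.443).

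In total, 1 of the 13 genes was called higher and 1 lower in the mean cold response, against 1.32% and 0.787% of all probe sets. With the block these were 2 and 2, against 3.13% and 3.06%. The 2 called lower in the blocked fit were PWD and DPE1. Each was the 1 measured gene of its list, of 5 phosphorylation loci and 6 loci of glucan transfer and export. The median of the 13 was 0.11, against 0.01 over all probe sets, and 9 of the 13 values were above 0. Members and lists were chosen with earlier results of these data known, so these counts are no independent support. Of the 10 genes other than the members, 1 was called higher and 0 lower, or 2 and 0 with the block. Their median was 0.15, and 8 of the 10 were above 0. The 57 loci without a named probe set, among them GWD1, the beta-amylases, DPE2 and SBE2.1, were not analysed here.

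**Figure D4:**
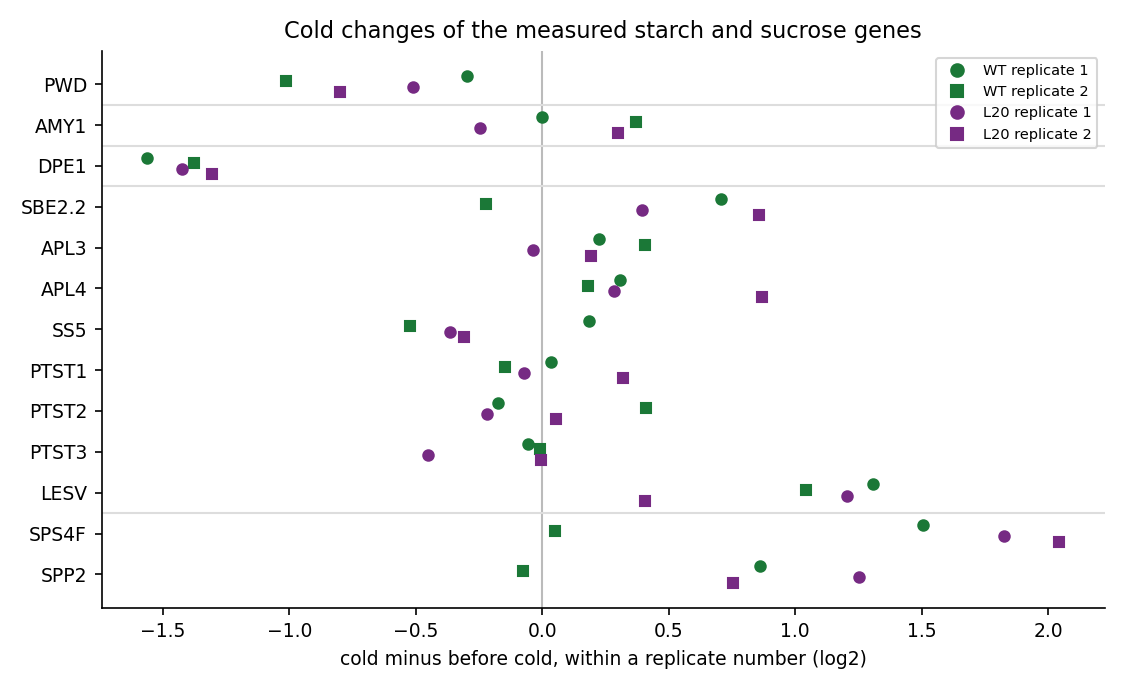
Cold change within a replicate number (log2, horizontal axis) of the 13 measured starch and sucrose genes. Circles are replicate 1, squares replicate 2, green wild type, purple L20, and grey rules part phosphorylation, hydrolysis, glucan transfer, synthesis and sucrose genes. All 4 points of DPE1 lie between -1.56 and -1.30, all 4 of LESV between 0.40 and 1.31, and SBE2.2 spans -0.22 to 0.86.

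The clock gene GI, the 1 measured of 16 clock loci, was 7.06 to 8.11 before and 8.38 to 8.97 after cold. Its mean change was 1.28 (limma adjusted p = 0.0320), kept without replicate 2 of wild type before cold (0.0483) and lost without each of the other 7 arrays (0.0502 to 0.129). The 3' minus 5' signal of the control transcripts, a measure of RNA integrity, was 1.406 to 1.505 before and 1.24 to 1.72 after cold for actin. It was 1.09 to 2.13 and 1.16 to 1.95 for GAPDH, and 0.48 to 0.69 and 0.05 to 0.51 for ubiquitin. Older actin probes gave 0.72 to 1.48 before and 0.65 to 0.92 after cold, lower after cold within each replicate number of both lines. Newer probes gave -0.89 to -0.20 and -0.83 to -0.39 for GAPDH, and -1.58 to -0.68 and -2.19 to -0.83 for ubiquitin. The part of the time of sampling, of green tissue (RCA above) and of RNA integrity in the DPE1 and PWD values was not tested.

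Other genes with nearly the same values over the 8 arrays were found by the root mean square difference of log2 signals after each was centred on its own mean, among 13512 single-gene probe sets. For DPE1 the nearest were AT5G57655 (0.18), AT1G60010 (0.18), AT4G30690 (0.20) and AT5G37930 (0.21). The median probe set was 0.76 away, and DPE1 itself varied by 0.73 around its mean. These 4 genes had mean cold changes between -1.58 and -1.16, a likeness to DPE1 that their choice by these same arrays favours.

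For PWD the nearest genes were AT4G01610 (0.08), AT5G64090 (0.10), AT3G57790 (0.11) and AT1G61900 (0.12), against a median of 0.44. Their mean cold changes lay between -0.73 and -0.55, which their choice by likeness to PWD favours. For SBE2.2 they were AT1G64680 (0.12), AT3G47070 (0.12), AT4G03260 (0.12) and AT4G16563 (0.12), also against a median of 0.44. These 4 were, like SBE2.2, lowest in replicate 2 of L20 before cold, a match that their choice by likeness favours.

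**Figure D5:**
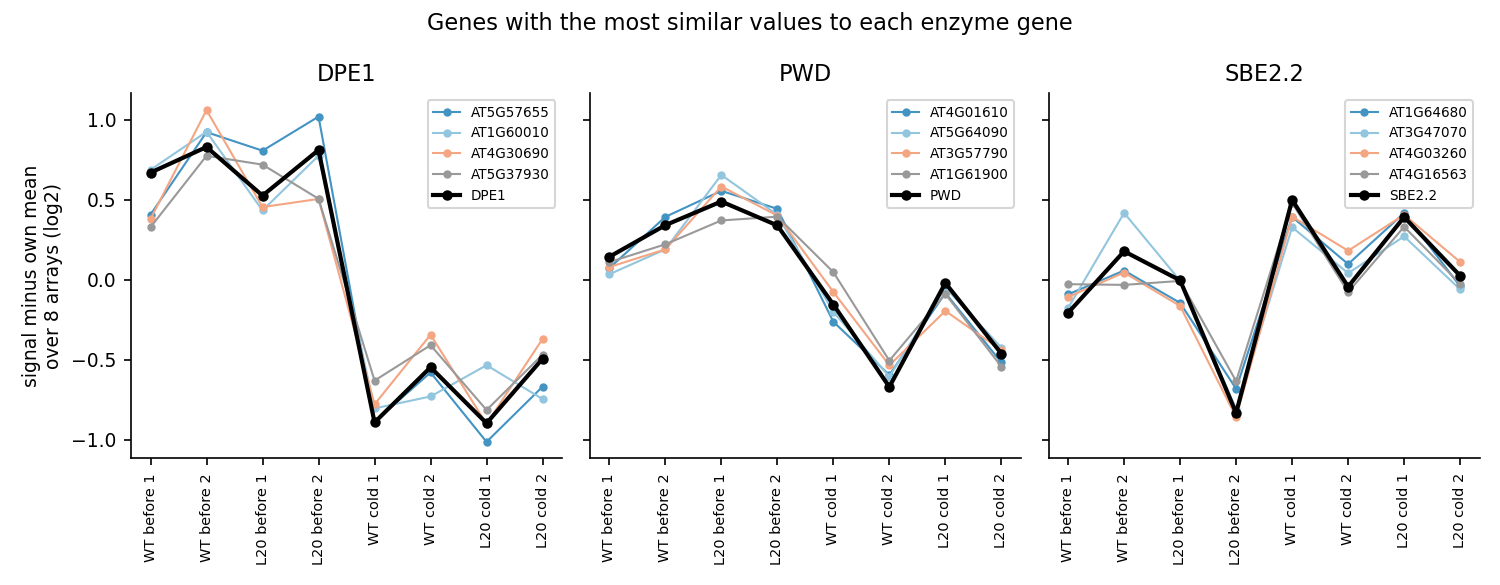
Log2 signal minus the gene's own mean (vertical axis) on the 8 arrays, for DPE1, PWD and SBE2.2 (black) and the 4 single-gene probe sets closest to each. The DPE1 set drops between unchilled and chilled arrays, the PWD set drops further in replicate 2, and the SBE2.2 set has its low point in replicate 2 of L20 before cold.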

How the data were processed

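RNA of whole seedlings was hybridised to Affymetrix arrays. The authors deposited 1 table of log2 values for 22810 probe sets and 8 arrays. The submitters' processing notes name RMA, a method of background correction, normalization between arrays and summary of probes. No RMA version is given, and joint processing of the 8 arrays is not stated. Changes are therefore relative to the bulk of genes. After removal of 64 control probe sets, 22746 were tested. Of these, 13513 carried 1 gene in the platform annotation, 503 several and 8730 none, and 13436 of the first matched a RefSeq gene of TAIR10.1 through Entrez identifiers. Members were matched by locus, and each had 1 probe set.

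Group means were fitted by limma 3.58.1 in R 4.3.3 on the 8 arrays together (lmFit, contrasts, eBayes, two-sided), with Benjamini-Hochberg adjustment over the tested probe sets. The comparisons were cold in each line, their mean, L20 minus wild type before and after cold, and the difference of the cold responses. Arrays were simulated with a cold change of 1.5 log2 units in both lines. The mean cold response was recovered for 80 of 100 changed probe sets without and 98 of 100 with the replicate block. Of the unchanged probe sets, 0 and 16 were called. The simulated replicate effect was equal in all groups, as the block assumes, so the gain with the block was built in. The real arrays did not share such an equal effect, and changes below 1.5 were not simulated. The pairing of arrays by replicate number comes from the data and is not stated in the labels. Genes named were the 3 members, all other measured starch, sugar and clock genes, and the 4 genes most like each member. The members and lists were chosen with earlier results of these data known. Alternatives were the replicate block, leaving out each array, trend and robust settings, quantile normalization, median centring and a filter on dim probe sets. The blocked fit with an array left out, and the alternatives for genes other than the members, were chosen after seeing the data. Precision is limited by the number of arrays.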

Additional observations from a re-analysis of the deposited data

How the results depend on the processing

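Over 306 values of the 3 genes (6 comparisons each, 13 to 21 alternatives), 267 kept direction and call, 16 gained a call, 2 lost it and 21, none of them called, changed sign. These values are not independent, since leaving out an array of either line does not move the cold difference of the other. Without the block only DPE1 in the mean cold response was called, so elsewhere a kept call means a value that stayed uncalled. With the replicate block DPE1 was called in wild type (-1.47) and L20 (-1.36) and PWD in the mean cold response (-0.65). Median centring (-1.49) and the filter on dim probe sets (-1.47), which tested fewer probe sets, also called DPE1 in wild type; trend and robust settings and quantile normalization did not. The cause of the other differences was not tested.

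With 1 array left out, with and without the block, the cold difference of DPE1 ran from -1.64 to -1.30 in wild type, from -1.57 to -1.16 in L20 and from -1.52 to -1.32 in the mean of both. That of PWD ran from -0.94 to -0.37 in wild type, from -0.88 to -0.43 in L20 and from -0.80 to -0.51 in the mean. That of SBE2.2 ran from -0.24 to 0.72 in wild type, from 0.21 to 1.04 in L20 and from 0.19 to 0.68 in the mean. For L20 minus wild type, the range before cold was -0.22 to 0.061 for DPE1, 0.073 to 0.27 for PWD and -0.82 to 0.011 for SBE2.2. After cold it was -0.18 to 0.23, -0.086 to 0.43 and -0.29 to 0.25. The difference of the cold responses ran from -0.096 to 0.31 for DPE1, -0.26 to 0.26 for PWD and -0.030 to 0.80 for SBE2.2. Quantile normalization gave PWD -0.016 for L20 minus wild type before cold and 0.19 for the difference of the cold responses, and median centring gave 0.045 for the latter. The lone array of a group is assumed to vary like the other groups.

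Of all probe sets, limma called 121 in wild type, 86 in L20, 480 in the mean of both and 4 in L20 minus wild type before cold. With the block these were 357, 580, 1409 and 38. Quantile normalization gave 183, 204 and 17 for the first, second and last, and the filter on dim probe sets 140 in L20 and 8 before cold. With 1 array left out the counts ran from 0 to 91, 0 to 34, 137 to 276 and 0 to 0. Among the other starch genes, values near 0 changed sign with 1 array left out: AMY1 ran from -0.061 to 0.27, PTST1 from -0.13 to 0.19 and PTST2 from -0.21 to 0.24. SS5 ran from -0.49 to -0.019, PTST3 from -0.26 to -0.0013, APL4 from 0.26 to 0.56 and SPP2 from 0.43 to 0.97. No second probe set of a member existed for that alternative, and AMY1, APL4, PTST1 and PTST2 were below the filter on dim probe sets.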
